A study of Mus musculus with 12 samples.

Results

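The dipeptidyl peptidase genes and a related carboxypeptidase gene, Prcp, are described here in the hippocampus of mice with and without the transcription factor USF-1. The group holds 9 of the 55487 genes counted. Dpp7 was chosen by its normalised counts in these mice. Its transcript fell furthest from WT to USF-1 KO among tested transcripts that averaged above 100 counts and separated every KO from every WT mouse. The scarcer 4930447C04Rik fell further, with a log2 fold change of −3.76 against −3.54 for Dpp7. Because of this choice, the genotype values of Dpp7 are given as a description, without a test. Prcp, its lysosomal relative, and Dpp3, Dpp4, Dpp6, Dpp8, Dpp9, Dpp10 and Fap were taken for family and compartment. Hippocampal RNA was sequenced from 6 WT and 6 USF-1 KO mice on the C57Bl/6JRccHsd background, aged 3 to 4 months, with 1 library per mouse. The labels give 4 females and 2 males for WT and 2 females and 4 males for KO. Both genotypes were bred from heterozygous parents and the labels name no treatment. The KO lacks USF-1 in every tissue throughout life, so that the lack of the factor in the hippocampus cannot be told apart from its lack elsewhere. Mice are numbered within each genotype (WT 1 to WT 6, KO 1 to KO 6), and these numbers are names only.

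Dipeptidyl peptidases remove a pair of residues from the amino end of peptides, most of them after a penultimate proline or alanine, a bond that most other peptidases do not cut. DPP7 works at acidic pH in lysosomes and related vesicles, whereas DPP3, DPP8 and DPP9 are enzymes of the cytosol and DPP4 and FAP sit at the cell surface. DPP6 and DPP10 have lost the catalytic activity of the family and serve in neurons as auxiliary subunits of Kv4 potassium channels, which carry the transient current of dendrites. USF-1 binds the E-box, a short DNA motif, such as the palindrome CACGTG, that is also read by other helix-loop-helix factors.

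Since USF-1 binds E-boxes, the promoter of Dpp7 is shown first, beside those of Prcp, the other lysosomal member, and of Dpp8, the other member in which the palindrome was found. Each is given from 5′ to 3′ as the 250 bases before the transcription start in RefSeq (GRCm38.p6), in lower case, with the E-boxes CACGTG and CACATG (read on the other strand as CATGTG) in capitals.
Dpp7, chr2:25356333-25356582, reverse strand: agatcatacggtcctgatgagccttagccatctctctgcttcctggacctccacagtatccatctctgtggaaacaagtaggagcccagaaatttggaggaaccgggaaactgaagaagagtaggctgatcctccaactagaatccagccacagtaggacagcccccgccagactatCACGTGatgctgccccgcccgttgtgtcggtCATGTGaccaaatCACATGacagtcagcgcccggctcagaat
Dpp8, chr9:65032208-65032457, forward strand: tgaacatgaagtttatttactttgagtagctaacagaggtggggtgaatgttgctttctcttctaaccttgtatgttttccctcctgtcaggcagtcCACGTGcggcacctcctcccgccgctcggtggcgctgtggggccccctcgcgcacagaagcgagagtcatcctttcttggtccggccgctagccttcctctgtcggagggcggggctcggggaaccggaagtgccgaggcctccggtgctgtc
Prcp, chr7:92875003-92875252, forward strand: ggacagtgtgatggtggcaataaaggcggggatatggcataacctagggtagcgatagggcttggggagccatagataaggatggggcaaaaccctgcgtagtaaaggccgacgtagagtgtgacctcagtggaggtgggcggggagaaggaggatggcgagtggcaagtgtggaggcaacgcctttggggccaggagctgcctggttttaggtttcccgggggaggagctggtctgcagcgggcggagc

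The Dpp7 promoter held 3 such E-boxes. The palindrome CACGTG began 73 bases before the start, and 2 copies of CACATG, in opposite orientations, began 42 and 29 bases before it. The copies do not overlap. In Dpp8 a single CACGTG began 153 bases before the start. Over the window of 250 bases before to 50 after the start, none of the other members found in the RefSeq table held either motif (8 of 9 members were found, in 11 entries, and Fap was not). Of the 32851 promoters in that table, 7.15% held CACGTG on these 300 bases, 14.2% held CACATG on either strand, and 57, or 0.174%, held CACGTG together with at least 2 copies of CACATG. The longer palindrome TCACGTGA, which includes CACGTG, was found in 0.974% of promoters and among the members in Dpp7 alone. CACATG and TCACGTGA were chosen after the Dpp7 sequence had been read. Binding was not measured.

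Reads counted on genes ranged from 23369928 to 32091173 per library in WT and from 21679622 to 30859179 in KO mice. Values are normalised counts, the reads of a gene divided by a size factor of its library. Usf1, the targeted gene (ENSMUSG00000026641), had a lowest, median and highest value of 842, 1512 and 1583 in WT and of 117, 139 and 163 in KO mice, with means of 1409 ± 284 and 141 ± 15.0 (SD, n = 6 each). The KO mean of Usf1 was 9.98% of the WT mean (log2 fold change −3.29, adjusted p = 1.77e-08, limma with Benjamini-Hochberg adjustment). Its paralogue Usf2 had 1995 ± 73.9 in WT and 2075 ± 26.7 in KO mice (SD, n = 6 each, log2 fold change 0.06, adjusted p = 0.468). All 7 markers of hippocampal neurons (Prox1, Zbtb20, Wfs1, Neurod6, Fibcd1, Camk2a and Calb1) were present in every mouse. Their median log2 fold change was 0.15, none was negative and none passed the threshold between genotypes. The 7 choroid plexus markers stood apart in WT 1 and WT 5, where they summed to 57696 and 163201 normalised counts. The sums lay between 830 and 1433 in the remaining WT and between 974 and 2743 in the KO mice. Of the 18221 genes tested, 164 (0.900%) passed the threshold between genotypes, 29 (0.159%) higher and 135 (0.741%) lower in KO.

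Dpp7 (ENSMUSG00000026958) lies on chromosome 2 from 25352276 to 25356359 on the reverse strand (GRCm38). Its normalised count was 557 at its lowest, 580 at the median and 662 at its highest in WT mice. In KO mice the corresponding values were 25.1, 56.6 and 72.1. The genotypes were far apart, and no KO mouse came near the lowest WT mouse. Of all tested genes, 1.50% had no overlap between the genotypes in either direction, and 1.08% none with lower KO values. The mean was 596 ± 41.0 in WT and 53.4 ± 18.6 in KO mice (SD, n = 6 each), so that KO mice retained 8.95% of the WT mean, and single KO mice between 4.20% and 12.1%. The log2 fold change was −3.54 with a standard error of 0.21. In bulk tissue, fewer cells that express a gene and less RNA per cell cannot be told apart.

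The transcript of Dpp7 remained measurable in every KO mouse. KO 3, the lowest, had 23 reads, with an exact 95% Poisson interval of 14.6 to 34.5, and KO 6, the highest, had 70 reads, with an interval of 54.6 to 88.4. WT mice had 555 to 722 reads. These intervals cover counting error only. Scaled by library size, these intervals were 15.9 to 37.6 normalised counts for KO 3 and 56.2 to 91.1 for KO 6. On the log2 scale the SD between mice was 0.10 in WT and 0.57 in KO. Among the 1594 tested genes with a similar KO mean, the median SD between KO mice was 0.26, and 93.4% of them had a smaller SD than Dpp7.

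The WT mouse with the least Usf1, WT 5, had the most Dpp7. It had 842 normalised counts of Usf1, where the next WT mouse had 1425, and 662 of Dpp7, where the next had 630. WT 5 was also the mouse with the highest sum of choroid plexus markers (163201). The part of tissue make-up in its values was not tested. KO 3 was the lowest KO mouse for both genes, with 117 normalised counts of Usf1 and 25.1 of Dpp7.

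**Figure D1:**
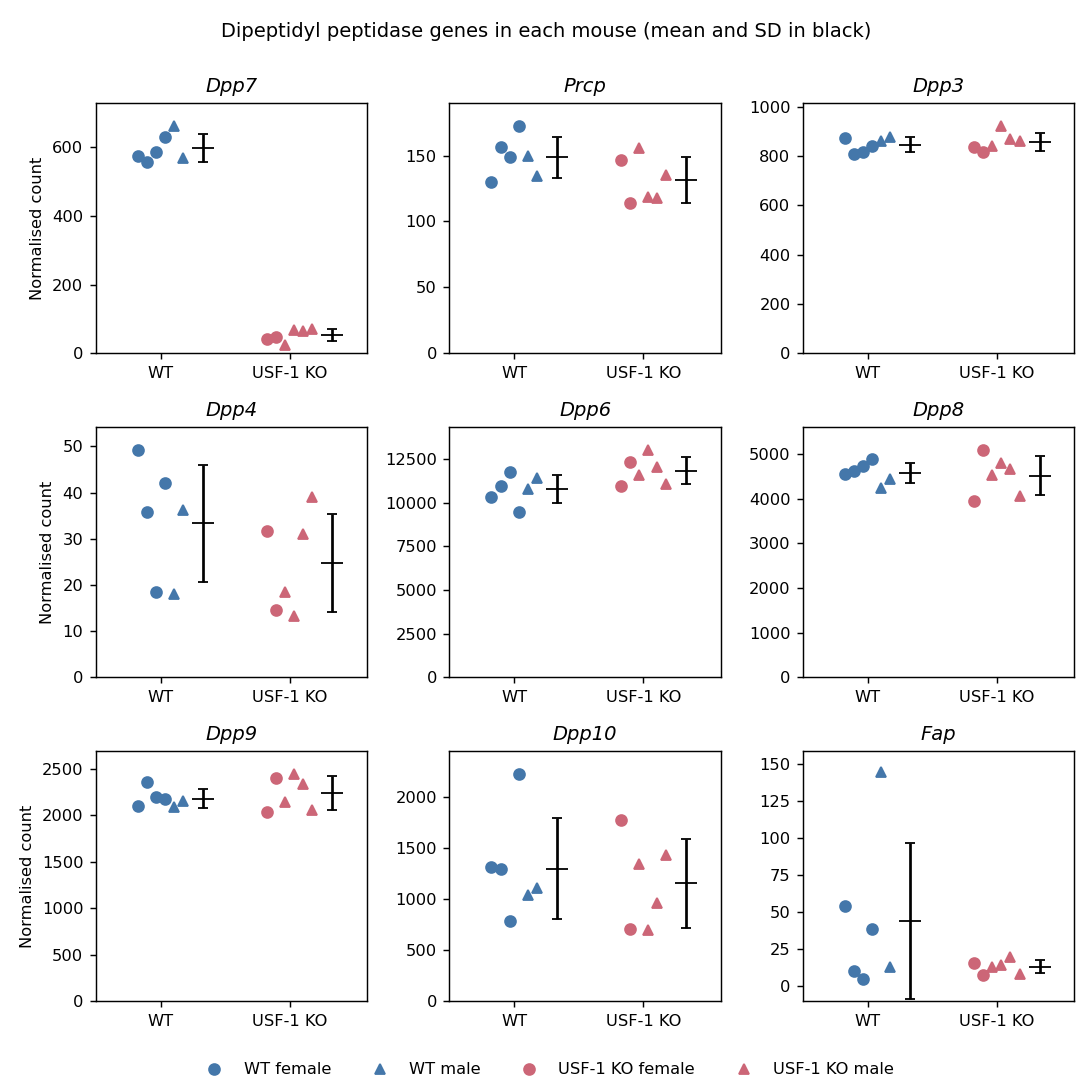
Normalised count (linear axes from 0, extended below 0 for Fap to show its SD) of each of the 9 genes in every mouse, 6 WT in blue and 6 USF-1 KO in red, circles for females and triangles for males. Black marks give the mean and SD of 6 mice. Dpp7 in KO mice sits between 25.1 and 72.1, below all WT mice, whereas the genotypes overlap for the other 8 genes.

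Among tested genes with a mean over 100 normalised counts and no overlap between genotypes, Dpp7 had the most negative log2 fold change, followed by Usf1 at −3.29, Zfp946 at −1.11, Ucp2 at −0.91 and Sgsh, a lysosomal sulfatase, at −0.80. Over all tested genes 4930447C04Rik, with a mean of 85.1, was more negative at −3.76. These ranks state how Dpp7 was chosen. The sums of the 6 oligodendrocyte markers ranged from 83576 to 180879 normalised counts in WT and from 71972 to 110270 in KO mice. All 6 had negative log2 fold changes with a median of −0.68 and unadjusted p under 0.05, none passed the threshold, and none was at 0 in any mouse. The 7 microglial markers also were all negative, with a median of −0.21 and none past the threshold, and their sums ranged from 6157 to 8753 in WT and from 5751 to 6622 in KO mice. The part of these cells in the Dpp7 difference was not tested.

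Position was not used to choose Dpp7. Of the 10 nearest tested genes, 5 on each side, 1 passed the threshold (0.900% of all tested genes did). This was Uap1l1 (ENSMUSG00000026956, chromosome 2 from 25359889 to 25365682, reverse strand), which encodes a protein related to the pyrophosphorylase of the hexosamine pathway. It is transcribed in the same direction as Dpp7 and ends 3529 bases before it. Its lowest, median and highest values were 236, 289 and 344 in WT and 167, 181 and 203 in KO mice, without overlap. The mean of Uap1l1 fell from 290 ± 36.2 to 184 ± 15.4 (SD, n = 6 each, log2 fold change −0.65, SE 0.09, adjusted p = 0.00289, limma with Benjamini-Hochberg adjustment), and it was lower than the WT mean in 6 of 6 KO mice.

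Man1b1, which encodes a mannosidase of the secretory pathway, lies on the other side, only 63 bases from Dpp7 and on the opposite strand, with the 3′ ends of both genes facing each other. It had 2136 ± 78.3 normalised counts in WT and 2154 ± 63.6 in KO mice (SD, n = 6 each), a log2 fold change of 0.01 with a 95% interval from −0.06 to 0.09 (adjusted p = 0.916, limma). The remaining neighbours had log2 fold changes from −0.25 for Tprn to 0.18 for Entpd2. Among them, Grin1, the obligatory subunit of NMDA receptors, had a value of 0.17 (adjusted p = 0.240, limma) and Abca2, a lipid transporter of lysosomes and myelin, −0.18 (adjusted p = 0.140, limma). Ssna1, Anapc2, Sapcd2 and Npdc1 had values of −0.05, −0.05, 0.04 and 0.09. Within 1 Mb of Dpp7, 1 of 53 tested genes passed the threshold (0.900% of all tested genes did), and the median log2 fold change was 0.01. No tested gene overlapped Dpp7. Among the neighbours found in the promoter table, Grin1 held 2 copies of CACGTG and 1 of CACATG, Sapcd2 held 1 CACATG and Man1b1 held neither motif, while Uap1l1 was not found.

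**Figure D2:**
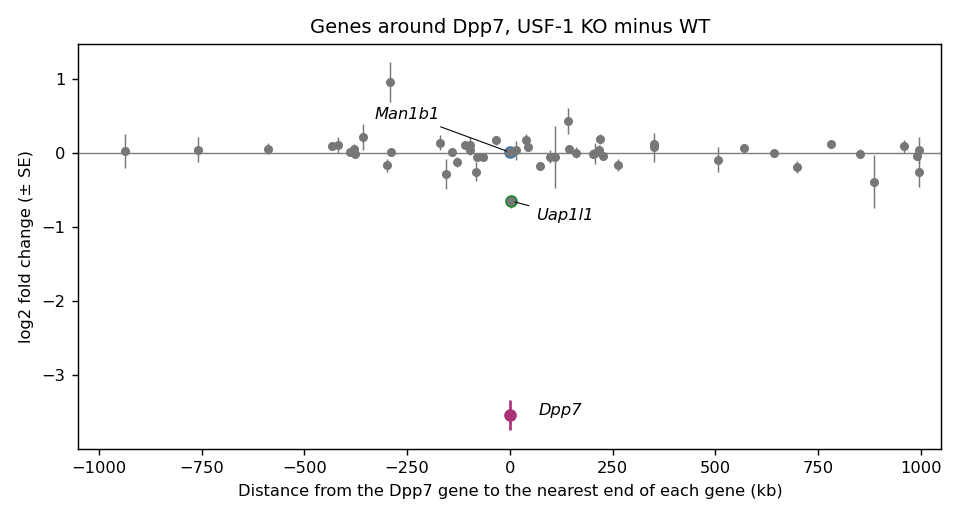
Log2 fold change (USF-1 KO minus WT, with standard errors) of Dpp7 and the 53 tested genes within 1 Mb, against the distance in kb from the Dpp7 gene to the nearest end of each gene on the forward strand. Dpp7 is at −3.54 and Uap1l1, the only one of the 53 that passed the threshold, at −0.65, while Man1b1, at 63 bases, is at 0.01.

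None of the 8 other members passed the threshold between genotypes (0.900% of all tested genes did), in the main test or under any alternative, DESeq2 and edgeR included. Their adjusted p ranged from 0.311 to 0.900, and 1 of 8 had an unadjusted p under 0.05 in the main test, where 13.5% of all tested genes did. That number was 0 in 7, 1 in 11 and 2 in 4 of the 22 settings, with 2 by DESeq2 and by edgeR and 0 with sex as a covariate. None was without overlap between genotypes (1.50% of all tested genes were). Their median log2 fold change was −0.10, against a median close to 0 over all tested genes.

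**Figure D3:**
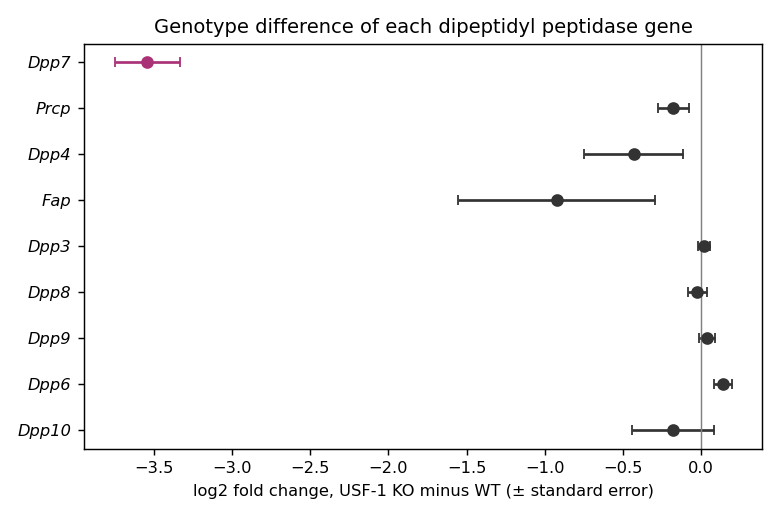
Log2 fold change (USF-1 KO minus WT, dot) with its standard error (bar) for the 9 members, the dipeptidyl peptidase genes and Prcp, over 12 mice. Dpp7 is at −3.54, and the other 8 genes lie between −0.92 for Fap, which has the widest error, and 0.14 for Dpp6.

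Prcp (ENSMUSG00000061119, chromosome 7 from 92874470 to 92934583, forward strand) encodes the lysosomal carboxypeptidase that removes the last residue after a proline, among others from angiotensin II and from the satiety peptide α-MSH, and is the closest relative of DPP7. Its lowest, median and highest values were 130, 149 and 173 in WT and 114, 127 and 156 in KO mice, with broad overlap. The mean was 149 ± 15.5 in WT and 131 ± 17.2 in KO mice (SD, n = 6 each). The log2 fold change was −0.18 with a 95% interval from −0.39 to 0.03 (adjusted p = 0.460, limma), against −3.54 in Dpp7.

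Dpp7 and Prcp share the lysosome with other proteases. Of 12 serine carboxypeptidases and cathepsins of the lysosome, 1 passed the threshold (0.900% of all tested genes did), 8 had an unadjusted p under 0.05 (13.5% of all tested genes did), and all 12 had negative log2 fold changes with a median of −0.23, against a median close to 0 over all tested genes. Ctsa, the protective carboxypeptidase of sialidase and β-galactosidase, ranged from 2307 to 2733 in WT, with a median of 2548, and from 1935 to 2262 in KO mice, with a median of 2145. It fell from 2510 ± 155 to 2127 ± 129 (SD, n = 6 each, log2 fold change −0.24, SE 0.05, adjusted p = 0.0415, limma), a call that was lost in 12 of 21 alternatives, 9 of which left out a single mouse, with adjusted p from 0.00117 to 0.208. Ctsb, a cysteine cathepsin, had 12330 ± 532 in WT and 11073 ± 261 in KO mice (log2 fold change −0.15, adjusted p = 0.0734, limma). Lgmn, the asparaginyl endopeptidase, had 2419 ± 161 and 2060 ± 143 (−0.23, adjusted p = 0.0704, limma). For Ctsd, the main aspartic protease of the lysosome, the values were 4745 ± 687 and 3979 ± 191 (−0.24, adjusted p = 0.155, limma). These enzymes are abundant in microglia, whose 7 markers had a median of −0.21, and the part of these cells was not tested. Slc66a1 was not found among the gene names, and of the other 6 transporters that release peptides, cystine or amino acids from the lysosome none passed the threshold (median log2 fold change −0.09).

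Dpp3 (ENSMUSG00000063904, chromosome 19 from 4907229 to 4928287, reverse strand) encodes a zinc enzyme of the cytosol that degrades enkephalins and angiotensins and binds KEAP1. It was the steadiest member. Lowest, median and highest values were 808, 851 and 878 in WT and 816, 852 and 923 in KO mice. The means were 846 ± 29.1 and 858 ± 37.3 (SD, n = 6 each), the log2 fold change 0.02 and its 95% interval −0.07 to 0.10 (adjusted p = 0.886, limma). The sign turned when sex was a covariate and without KO 4.

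Dpp8 (ENSMUSG00000032393, chromosome 9 from 65032414 to 65082651, forward strand) and Dpp9 (ENSMUSG00000001229, chromosome 17 from 56186807 to 56218905, reverse strand) encode closely related cytosolic enzymes that hold back the NLRP1 inflammasome. Dpp8, which has a CACGTG in its promoter as Dpp7 does, ranged from 4229 to 4888 in WT, with a median of 4579, and from 3947 to 5095 in KO mice, with a median of 4596. The KO range enclosed the WT range. Means were 4576 ± 230 and 4513 ± 441 (SD, n = 6 each), with a log2 fold change of −0.02 and a 95% interval from −0.15 to 0.11 (adjusted p = 0.900, limma). Its sign turned without KO 1 and without KO 6. For Dpp9 the lowest, median and highest values were 2083, 2161 and 2358 in WT and 2034, 2236 and 2447 in KO mice, again with the KO range around that of WT. The log2 fold change of Dpp9 was 0.04 with a 95% interval from −0.08 to 0.15 (adjusted p = 0.813, limma).

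Of 16 other proline-specific and related peptidases, 2 passed the threshold, both lower in KO (0.741% of all tested genes were). Of the 16, 3 had an unadjusted p under 0.05 by limma (13.5% of all tested genes did). Their median log2 fold change was −0.04, against −0.0006 over all tested genes. Tpp1, the lysosomal tripeptidyl peptidase whose loss causes a neuronal ceroid lipofuscinosis, had lowest, median and highest values of 1842, 1970 and 2275 in WT and of 1414, 1439 and 1493 in KO mice, without overlap. It fell from 1998 ± 153 to 1447 ± 31.5 (SD, n = 6 each, log2 fold change −0.46, SE 0.05, adjusted p = 2.71e-04, limma). Its cytosolic counterpart Tpp2 had 1271 ± 40.6 and 1313 ± 119 (log2 fold change 0.04, adjusted p = 0.794, limma). Lap3, the leucine aminopeptidase of the cytosol, fell from 1216 ± 86.8 to 937 ± 86.9 (SD, n = 6 each, log2 fold change −0.38, SE 0.06, adjusted p = 0.0134, limma), and lost its call when WT 1 and WT 5 were both left out (log2 fold change −0.37, adjusted p = 0.0714, limma). Prepl, a relative of prolyl oligopeptidase, and Npepps, the puromycin-sensitive aminopeptidase, had log2 fold changes of 0.04 and −0.04 with adjusted p of 0.712 and 0.642 (limma). In these peptidase lists, promoters were searched only for the 3 genes that passed the threshold, so that there is no comparison with the others. Tpp1 held 2 copies of CACATG and Lap3 held 1 CACGTG, all after the transcription start. For Ctsa, 1 of the 2 promoter entries held 2 copies of CACGTG and 1 of CACATG, some of them after the start. Of all promoters, 7.15% held CACGTG and 14.2% CACATG.

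Dpp4 (ENSMUSG00000035000, chromosome 2 from 62330073 to 62412231, reverse strand) encodes the surface enzyme that inactivates incretins and trims chemokines and neuropeptide Y. It was scarce. Lowest, median and highest values were 18.0, 36.1 and 49.3 in WT and 13.3, 24.7 and 39.1 in KO mice, in reads 17 to 62 per WT and 11 to 39 per KO library. With means of 33.3 ± 12.7 and 24.7 ± 10.6 (SD, n = 6 each), the log2 fold change was −0.43 and its 95% interval −1.11 to 0.25 (adjusted p = 0.593, limma), so that a moderate change was not detectable at this depth and spread. Of 11 peptides and chemokines that DPP4 cleaves, 5 passed the limit on the mean and none of these the threshold. Of these 5, 3 had an unadjusted p under 0.05 by limma (13.5% of all tested genes did). Negative log2 fold changes were found in 4 of the 5, and the median was −0.29. Cxcl12, a chemokine, had 1062 ± 80.2 in WT and 1273 ± 142 in KO mice (log2 fold change 0.26, adjusted p = 0.115, limma), and Npy, neuropeptide Y, 957 ± 186 and 762 ± 80.8 (−0.31, adjusted p = 0.219, limma). The genotypes did not overlap for Cxcl12 (1.50% of all tested genes had no overlap) and overlapped for Npy.

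Fap (ENSMUSG00000000392, chromosome 2 from 62500943 to 62574075, reverse strand), the neighbour of Dpp4 at a distance of 88.7 kb, encodes a post-proline peptidase of activated fibroblasts. Its lowest, median and highest values were 4.62, 25.9 and 144 in WT and 7.84, 13.8 and 19.6 in KO mice. The KO range lay within the WT range. Means were 44.2 ± 52.6 in WT and 13.1 ± 4.50 in KO mice (SD, n = 6 each), with a log2 fold change of −0.92 and a 95% interval from −2.28 to 0.43 (adjusted p = 0.564, limma). By edgeR and DESeq2 on the reads it was −1.72 and −1.75 (adjusted p = 0.264 and 0.101), and with 1 mouse left out it ranged from −1.36 without WT 3 to −0.42 without WT 5.

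The WT mean of Fap rested on 3 mice. WT 5 had 144 normalised counts, WT 1 had 54.1 and WT 4 had 38.6, while the other WT mice had 4.62 to 13.1. WT 5 and WT 1 were the mice with the high choroid plexus markers. All 7 of these markers had negative log2 fold changes with a median of −1.18, none was called, and none was at 0 in any mouse. Without WT 1 and WT 5 the WT mean of Fap was 16.6 ± 15.1 (SD, n = 4) and its log2 fold change −0.02 (adjusted p = 0.995, limma). The 8 fibroblast markers had a median log2 fold change of −0.22, and their sums ranged from 783 to 2311 in WT and from 687 to 2513 in KO mice. The part of fibroblasts in the Fap values was not tested.

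Dpp6 (ENSMUSG00000061576, chromosome 5 from 26817203 to 27727505, forward strand) was the most abundant member. Its lowest, median and highest values were 9470, 10871 and 11783 in WT and 10970, 11832 and 13054 in KO mice, and the genotypes overlapped. The means were 10792 ± 819 and 11856 ± 794 (SD, n = 6 each), and every KO mouse, 6 of 6, was above the mean of the WT mice. The log2 fold change was 0.14 with a 95% interval from 0.01 to 0.26. The unadjusted p was 0.0326 and the adjusted p 0.311 (limma with Benjamini-Hochberg adjustment), so that the difference did not hold after adjustment. Gm16056, a processed pseudogene on the opposite strand that overlaps the span of Dpp6, had a mean of 127 normalised counts. Whether it shares exon bases with Dpp6 was not checked.

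Dpp10 (ENSMUSG00000036815, chromosome 1 from 123321471 to 124846039, reverse strand) varied between mice far more than Dpp6. Its lowest, median and highest values were 787, 1207 and 2231 in WT and 696, 1155 and 1775 in KO mice. The means were 1298 ± 496 and 1154 ± 435 (SD, n = 6 each), with a log2 fold change of −0.18 and a 95% interval from −0.74 to 0.38 (adjusted p = 0.811, limma). Its size depended on single mice, from −0.01 without WT 4 to −0.32 without KO 1, with values of −0.06, −0.05 and −0.31 without KO 2, KO 4 and WT 3. On the log2 scale the SD between KO mice was 0.56, and 99.7% of the 2574 tested genes with a similar KO mean had a smaller one. Both genotypes held mice with high and mice with low Dpp10.

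Mice with more Dpp10 had less Dpp6. WT 4, with the most Dpp10 (2231), had the least Dpp6 (9470), and KO 4, with the least Dpp10 (696), had the most Dpp6 (13054). Over the 12 mice, after subtraction of each genotype's mean on the log2 scale, Pearson's r was −0.93 and Spearman's rho −0.92. It was −0.93 within WT and −0.95 within KO mice, −0.88 without the 2 mice farthest from the median of Dpp6, and −0.88 with libraries rescaled to the same total. The pair was chosen after all 36 pairs of members had been computed, and the value is a description. The second highest in size was that of Dpp8 with Dpp9, at 0.81, which was 0.92 within KO but 0.44 within WT mice. For Dpp7 the values with the other members lay between −0.50 and 0.46. The deviations of the 9 members were also set against those of the 8 marker lists, 72 values in all, and those over 0.6 in size were picked from them, apart from that of Fap with the choroid plexus markers, which is described by mouse above. For Dpp8 r was 0.94 with the hippocampal neuron, −0.80 with the fibroblast, −0.69 with the oligodendrocyte and 0.61 with the microglial markers. For Dpp9 it was 0.78 with the hippocampal neuron markers, and for Dpp4 0.69 with those of inhibitory neurons. Dpp6 and Dpp10 had an r of 0.45 and −0.47 with the hippocampal neuron and of −0.40 and 0.50 with the inhibitory neuron markers, and Dpp7 had values from −0.37 to 0.19 over the 8 lists. How the dissected tissue was composed in each mouse was not tested.

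**Figure D4:**
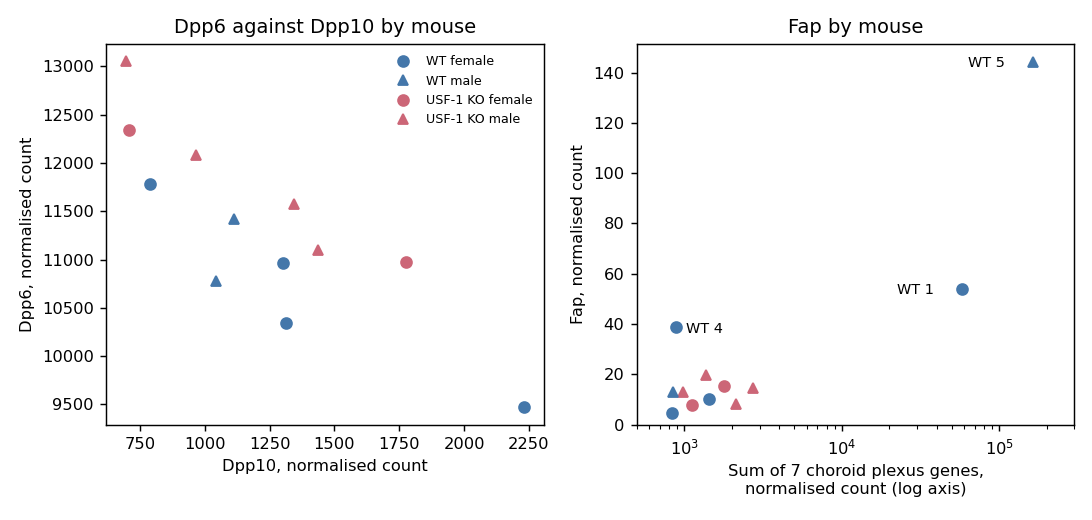
Left, normalised counts of Dpp6 against Dpp10 in each mouse. Right, normalised count of Fap against the sum of 7 choroid plexus genes (log axis) in each mouse. Blue is WT and red USF-1 KO, with circles for females and triangles for males. Dpp6 is lower where Dpp10 is higher in both genotypes, and WT 5, with 144 counts of Fap, has the highest choroid plexus sum (163201).

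Of the 7 genes of the Kv4 complex that DPP6 and DPP10 join, none passed the threshold, and the median log2 fold change was 0.04. Kcnip2, which encodes a calcium-binding channel subunit, had 4535 ± 413 in WT and 4914 ± 664 in KO mice (log2 fold change 0.11, adjusted p = 0.636, limma). Kcnd2, which encodes the pore subunit Kv4.2, had 3165 ± 481 and 3711 ± 617 (0.23, adjusted p = 0.427, limma). Kcnip3 had 2854 ± 398 and 2809 ± 429 (−0.03, adjusted p = 0.945, limma).

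Levels of the members were compared per kilobase of exon. In WT mice Dpp6 was highest with a mean of 874 normalised counts per kb, followed by Dpp8 with 334, Dpp9 with 276, Dpp7 with 179, Dpp3 with 109, Dpp10 with 82.2, Prcp with 27.0, Fap with 7.80 and Dpp4 with 5.28. Dpp7 thus had a WT level per kb above that of Prcp in every mouse, with 167 to 199 against 23.6 to 31.4. From Dpp6 down to Dpp3, the WT ranges of genes next to each other in this order did not overlap. Those of Dpp3 (104 to 113) and Dpp10 (49.9 to 141) overlapped, as did those of Fap (0.816 to 25.5) with its neighbours Prcp and Dpp4. In KO mice Dpp7 had a mean of 16.0 per kb, with a range from 7.51 to 21.6, and moved from rank 4 to rank 7, below Prcp at 23.9. There the ranges of Dpp7 and Prcp (20.8 to 28.4) overlapped slightly. With the length of the longest coding transcript in place of all exons the order in WT was the same.

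**Figure D5:**
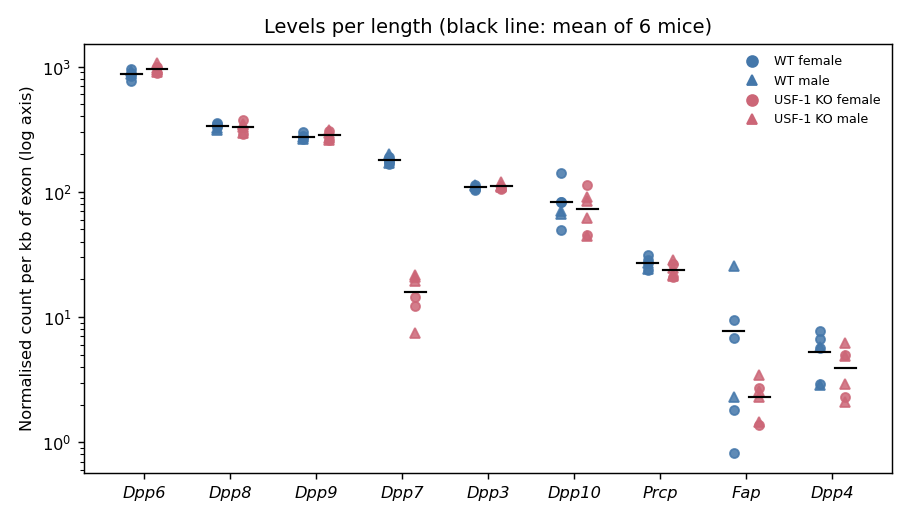
Normalised count per kb of exon (log axis) of the 9 genes in each of 6 WT (blue) and 6 USF-1 KO mice (red), ordered by the WT mean, with the mean as a black line, circles for females and triangles for males. Dpp7 is the fourth of the genes in WT at 179 per kb and lies below Prcp in KO at 16.0.

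Sex was not used to choose the members. With genotype as a covariate, none of the 9 members passed the threshold between males and females (0.0549% of all tested genes did), with adjusted p from 0.806 to 0.972 (limma). For Dpp7 the mean was 587 in WT females, 616 in WT males, 44.4 in KO females and 57.8 in KO males. The log2 difference of males minus females was 0.17 with a 95% interval from −0.32 to 0.65 (adjusted p = 0.935, limma). The difference between the sexes in the genotype effect on Dpp7 was 0.20, with a 95% interval from −0.81 to 1.21. With 2 mice in some groups this interval is wide. Neither any member nor any other gene passed the threshold for this interaction (0 by limma and 0 by edgeR, with 628 and 639 genes at an unadjusted p under 0.05).

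The genes whose values were most like those of Dpp7 over the 12 mice, by Pearson's r on the log2 scale among 18220 tested genes, were Usf1 (0.97), Gaa (0.97), which encodes the lysosomal acid α-glucosidase, Washc5 (0.96), a subunit of the endosomal WASH complex, Shmt1 (0.95), a serine hydroxymethyltransferase, and Copa (0.95), a subunit of the COPI coat. The most negative values were those of E330034L11Rik (−0.94), Igsf9 (−0.93) and Strc (−0.92). These values mostly carry the genotype split that all 12 points share, and no other member was near them, with r from −0.55 for Dpp6 to 0.41 for Prcp. After each genotype's mean was subtracted, r for Usf1 was 0.21 and for Gaa 0.50. High values were then those of Echdc2 (0.95) and Gm6807 (0.91). Echdc2 had a log2 fold change of 0.01 between genotypes. KO 3 was the lowest of all 12 mice for Dpp7, Echdc2 and Gm6807.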

How the data were processed

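Libraries came from the hippocampus of WT (6) and USF-1 KO (6) mice, 1 per mouse. The authors deposited 1 signal per gene and library, the read count divided by a size factor, produced on the Basespace platform with STAR (2.5.0a in the submitters' processing notes, which also name mm10 and edgeR 3.22.2) and DESeq2. The read counter, the annotation and the use of strand are not given in the sources used here. Of 55487 gene identifiers 55227 were in GENCODE M21. In all 12 libraries 100% of values came out whole, within 0.01 read, after division by the library's smallest step, which gave back the reads. No library was a repeat of another (lowest chi-square per degree of freedom over 66 pairs 4.54). All columns of mice were used.

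Genotypes were compared with limma 3.58.1 (R 4.3.3) on log2(normalised count + 1). The fit used a trend of variance on mean, held genotype as its single term and was two-sided. It covered genes whose mean reached 10, with Benjamini-Hochberg adjustment over all of them and a threshold of 0.05. Fold changes are on that scale, which understates those of scarce genes. The fit was repeated with pseudocounts of 0.5 and 5, without a limit on the mean and with a limit of 50, with libraries scaled to equal totals, with sex as a covariate, on the recovered reads by edgeR 4.0.16 (quasi-likelihood, TMM) and DESeq2 1.42.0, and without each mouse. Leaving out WT 1 and WT 5 together, the correlations between members and the motifs CACATG and TCACGTGA were added after the data had been seen. The members, lists and tests were chosen with earlier results of these data known. Named genes were the members, Usf1, Usf2, the 5 nearest tested genes on each side of Dpp7, listed genes past the threshold with up to 3 others of high mean per list, and those most like Dpp7; genes named beside its rank were chosen after their values were seen. The result of 1 gene is not reported here. Marker lists also covered endothelium, astrocytes and inhibitory neurons (median log2 fold changes 0.03, −0.01 and −0.02, with 0 genes called). Exon lengths came from GENCODE M21 and promoters from RefSeq. On simulated counts with 200 changed genes, limma recovered 199 and called 7 others of 18086 for genotype, and recovered 197 for sex and 158 for the interaction. In the simulation all changed genes changed by the same factor, and the scarcest genes were left unchanged. The spread followed a fixed formula, without differences in tissue between mice. These counts therefore do not give the power for smaller changes or for genes that varied more between mice.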

Additional observations from a re-analysis of the deposited data

Results flagged for a closer look

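Dixon's test was applied to the 6 mice of each genotype for the members, Usf1, Usf2, the neighbours of Dpp7 and the listed genes past the threshold, 48 groups in all. It set apart 4 values, where chance alone gives about 1 in 20, or 2.4. Dpp10 in WT 4 was 2231 normalised counts, against 787 to 1315 in the other WT mice. Fap in WT 5 was 144, against 4.62 to 54.1. Usf1 in WT 5 was 842, the lowest of the WT mice, against 1425 to 1583, in the mouse with the highest Dpp7 value and the highest choroid plexus sum. Tprn, a neighbour of Dpp7, was 292 in WT 4, against 458 to 523. No value of Dpp7 was set apart in either genotype.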

How the results depend on the processing

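No paired analysis was possible because the labels give no replicate numbers that WT and KO mice share. The log2 fold change of Dpp7 stayed between −3.64 and −3.35 over 22 settings, and 0 of the 8 other members were called in any of them. Of the results for single genes, 275 kept their direction and side of the threshold, 13 lost a call (12 for Ctsa and 1 for Lap3) and 4 turned in sign. These were Dpp3, at −0.0054 with sex as a covariate and −0.0032 without KO 4 (−0.0032 to 0.033 over single mice left out), and Dpp8, at 0.013 without KO 1 and 0.0056 without KO 6 (−0.061 to 0.013). The number of genes called between genotypes, 164, was 98 with sex as a covariate, 616 by DESeq2, 59 without WT 1 and WT 5 and from 64 (without WT 1) to 515 (without WT 4) when 1 mouse was left out. The cause was not tested. Of the serine carboxypeptidases and cathepsins, 0 were called with rescaled libraries, with no limit on the mean and without WT 1 and WT 5, 5 by DESeq2 and from 0 to 3 when 1 mouse was left out. Of the proline-specific peptidases, 1 was called without WT 1 and WT 5. By DESeq2, 2 of the peptides and chemokines that DPP4 cleaves and 2 of the neighbours of Dpp7 were called. When 1 mouse was left out, 1 to 3 neighbours were called (3 without WT 4), 10 to 17 genes for sex (17 without KO 1) and 0 to 1 for the interaction. Without a mouse of a pair of like sex and genotype, the remaining mouse was assumed to vary like the others. Dpp4 and Fap had too few reads to be tested at a mean of at least 50.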
